A study of Mus musculus with 15 samples.

Results

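The motile cilium genes described here are the protein-coding mouse genes whose symbols start with Cfap (cilia and flagella associated protein), Dnah (dynein axonemal heavy chain) or Rsph (radial spoke head), plus Foxj1. They had to reach at least 10 counts in at least 3 libraries of the fraction called flow-through below. Of 55 such genes in the count tables, named by the GENCODE annotation of GRCm38, 53 passed. The count tables held 33223 genes, of which 16719 met the same count rule. The pair left outside was Cfap97d1, with 0 to 2 counts per flow-through library, and Rsph6a, with 3 to 18 counts and a single library at 10 or more. Just inside were Dnah17, with 9 to 25 counts and 6 libraries at 10 or more, Dnah8 with 16 to 49 counts and Dnah7c with 22 to 36. The rule used symbols and flow-through counts without regard to genotype.

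The libraries are bulk RNA from the ipsilateral cortex of mice 1 day after traumatic brain injury, in which a moderate controlled cortical impact was delivered to the right parietal side. All mice carried floxed EphA4 alleles (EphA4f/f). The WT group had no Cre, and the KO group carried VeCadCreERT2, a tamoxifen-inducible Cre recombinase under the VE-cadherin promoter, which acts in endothelial cells. Age and tamoxifen schedule are not analysed here. The dissociated tissue was passed over CD45 and CD31 microbeads. One fraction, CD45, holds the immune cells (blood leukocytes and microglia), and the other, the flow-through, what the beads did not retain. Of the flow-through 4 libraries were WT and 3 KO, and of the CD45 fraction 3 were WT and 4 KO. A further library, labelled flow-through WT but placed in the CD45 table, had 906 CPM (counts scaled to a common library size) of the pan-leukocyte gene Ptprc and 2.62 of Foxj1, and was left out. Since no label ties a library to an animal, each p-value below reflects variation among libraries, and some of that may be technical.

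Total counts were 19204814 to 27270907 per flow-through library and 11574414 to 31337948 per CD45 library. Epha4 lay at 36.7 to 43.0 CPM in the 7 flow-through libraries, WT and KO alike. Neither fraction is an endothelial isolate, so this level does not check the deletion in endothelial cells. Endothelial RNA was higher in the CD45 libraries, where 6 endothelial markers summed to 274 to 427 CPM, against 38.7 to 55.3 in the flow-through. Levels below are CPM after TMM scaling within a fraction, where TMM (trimmed mean of M-values) is edgeR's correction for library composition, unless a level is said to be per kilobase of exon.

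Motile cilia are whip-like organelles that beat. In the brain they stand in tufts on ependymal cells, the epithelium that lines the ventricles, where they move cerebrospinal fluid. Their core, the axoneme, is a ring of microtubule doublets around a central pair. Dynein heavy chains in outer and inner arms are the motors. Radial spokes link the doublets to the central apparatus, and inner proteins brace the microtubules from within. Dynein arms are assembled in the cytoplasm before transport. FOXJ1 is the forkhead transcription factor required for motile ciliogenesis, and RFX factors bind the X-box, a palindromic promoter motif of many cilium genes.

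Promoter letters are shown for Cfap300, the member that passed the genotype test, and for Cfap206, a spoke base gene with an X-box close to its start. They are the 250 bases before the RefSeq start of each gene (GRCm38.p6), 5′ to 3′ on the gene's strand, and capitals mark the X-box letters.
Cfap206, chr4:34730207-34730456, minus strand: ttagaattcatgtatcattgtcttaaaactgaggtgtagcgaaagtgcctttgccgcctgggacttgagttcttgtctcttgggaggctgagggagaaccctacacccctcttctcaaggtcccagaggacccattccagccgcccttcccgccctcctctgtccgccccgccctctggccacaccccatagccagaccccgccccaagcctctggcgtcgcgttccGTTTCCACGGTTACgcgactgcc
Cfap300, chr9:8042876-8043125, minus strand: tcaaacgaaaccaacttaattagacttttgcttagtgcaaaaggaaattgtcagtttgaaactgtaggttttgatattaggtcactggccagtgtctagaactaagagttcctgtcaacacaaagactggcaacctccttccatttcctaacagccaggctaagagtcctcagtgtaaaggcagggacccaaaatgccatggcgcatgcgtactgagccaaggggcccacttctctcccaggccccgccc

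RefSeq windows of 250 bases before to 50 after the start were found for 41 of the 53 members. The X-box was searched on both strands as the half-sites GTTNCC and GGNNAC, or GTNNCC and GGNAAC, with any 2 bases between them, and 2 of the 41 windows (4.88%) held it, against 1.49% of the windows of 27025 genes. In Cfap206 the match GTTTCCACGGTTAC lies 23 to 10 bases before the start. In Cfap298 the match GTTGCCCGGGCAAC lies 188 to 175 bases before it. A forkhead core, searched as TGTTTAC or TGTTTGC on both strands, was in 4 of the 41 windows (9.76%), against 9.47% of all windows. The Cfap300 window printed above holds neither set of letters, which says only that they are absent from this stretch.

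The count rule fixed in advance that all 53 members were detected in the flow-through. Of them, 52 had at least 10 counts in every library. Foxj1, on chromosome 11 (positions 116330700 to 116335400, minus strand, GRCm38), was the highest per kilobase, at 72.4 CPM per kilobase of exon. Its levels were 172, 240.0, 191 and 222 CPM in WT libraries 1 to 4 and 177, 189 and 139.5 in KO libraries 1 to 3. The KO range overlapped the WT range, and KO library 3 was the lowest of all 7. Next per kilobase came Cfap36 at 30.3 and Rsph1, a spoke head protein, at 30.0.

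The motors were low per kilobase beside these genes. Of the outer arm chains of cilia, Dnah9 had 2.49 CPM per kilobase, Dnah5 2.15 and Dnah11 1.90. Dnah17 and Dnah8, the outer arm chains known from sperm flagella, had 0.047 and 0.045. The inner arm chains ran from 3.53 for Dnah6 to 0.10 for Dnah7c. Dnah7a, Dnah7b and Dnah7c are near-identical copies, and their split is uncertain. Across the 7 libraries, Dnah5 had 22.3, 43.45, 34.45 and 41.96 CPM in WT and 33.70, 32.45 and 27.02 in KO libraries. WT library 1 was the lowest, below all KO libraries, and the other WT libraries were the highest.

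The cytoplasmic assembly factors Cfap298 and Cfap300 had 20.7 and 10.5 CPM per kilobase. For Cfap298, 53.6% of the exon bases overlap a gene on the other strand, and its level is uncertain because the strand setting of the counting is not given. Of the spoke genes, the head proteins Rsph4a and Rsph9 had 10.4 and 8.87 and the spoke base gene Cfap206 had 9.84, while Rsph14 had 0.44. The central apparatus genes lay between 1.04 (Cfap221) and 2.38 (Cfap46). Of the 7 microtubule inner proteins, Cfap126 was the highest at 16.1 and Cfap53 the lowest at 1.98. The dynein tether and regulator genes, some of which hold inner arm dyneins to the doublets, ran from 0.87 for Cfap58 to 5.48 for Cfap73.

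**Figure D1:**
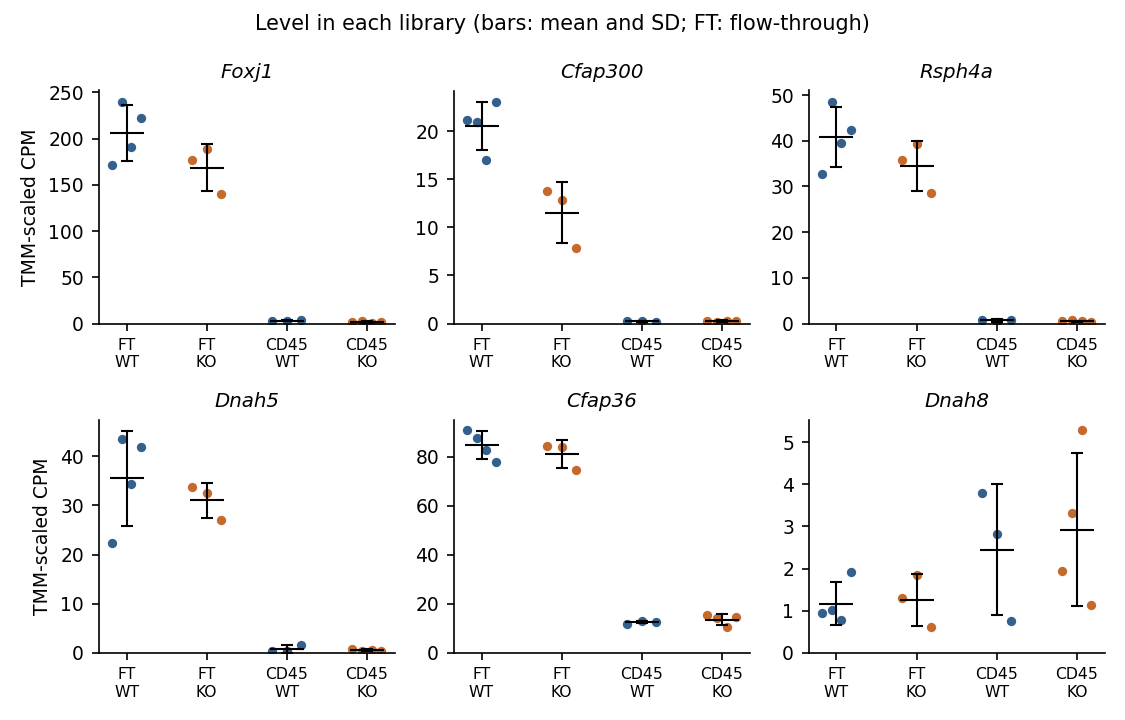
Levels of 6 members in each library, as TMM-scaled CPM on linear axes from 0; points are libraries, bars the mean and SD of the 4 groups. Cfap300 in the KO flow-through libraries (7.91 to 13.8) lies below all WT libraries (17.1 to 23.1), Foxj1 overlaps between genotypes, and Dnah8 is higher in the CD45 libraries on average (2.72 against 1.20).

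The label assigns these genes to ependymal cells, and a fixed list of ependymal markers was read beside them. That list itself holds motile cilium genes, among them Ak7, Dynlrb2 and Tekt1, so it is no independent check of the label. Of 13 markers, 12 had at least 10 counts in every flow-through library. Ccdc153 averaged 13.9 CPM ± 3.03 (SD, n = 4) in WT and 17.6 ± 3.02 (SD, n = 3) in KO libraries, and Tmem212 averaged 11.5 ± 2.26 and 12.2 ± 1.13. Both were higher on average in KO libraries, whereas 8 of the 12 markers tested between genotypes were lower there. Mia was near 0, at 0.00 to 0.34 CPM. Hdc averaged 651 CPM in the CD45 libraries against 23.6 in the flow-through, so it marks other cells there. In bulk samples, fewer cells of a type and less RNA per cell cannot be told apart, and which cells carried the members' RNA was not observed.

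The members rose and fell together between flow-through libraries. The median Pearson correlation over the 1378 pairs of members was 0.51 across the 7 libraries, and 0.52 after the genotype means were removed. Over the pairs of 3000 genes spaced evenly through the table it was -0.003, and over those of the 12 ependymal markers 0.43. A correlation above 0.8 was seen in 19.0% of member pairs and 2.46% of the other pairs. These values are descriptions: the points share the same 7 libraries, their depth and their base composition.

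The co-variation had a clear pattern by library. WT library 2 was the highest for 21 members and WT library 4 for 22. WT library 1 was the lowest for 23 members and KO library 3 for 18. The median deviation of the 53 members from their own mean, on a log2 scale, was -0.23, 0.32, 0.05 and 0.25 in WT libraries 1 to 4. In KO libraries 1 to 3 it was -0.08, 0.02 and -0.20. The same median over all genes tested stayed between -0.00 and 0.01 in all 7 libraries. Part of the pattern was not confined to the members. The other motile cilium genes described below had 0.23 and 0.18 in WT libraries 2 and 4 and -0.23 in KO library 3. The intraflagellar transport genes had 0.11, 0.11 and -0.16 in the same libraries. The low of WT library 1 was weaker or absent in these lists, at -0.06 and 0.03. For the members, the WT libraries spanned a wider range than the gap between the genotypes, with WT library 1 beside the lowest KO library.

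**Figure D2:**
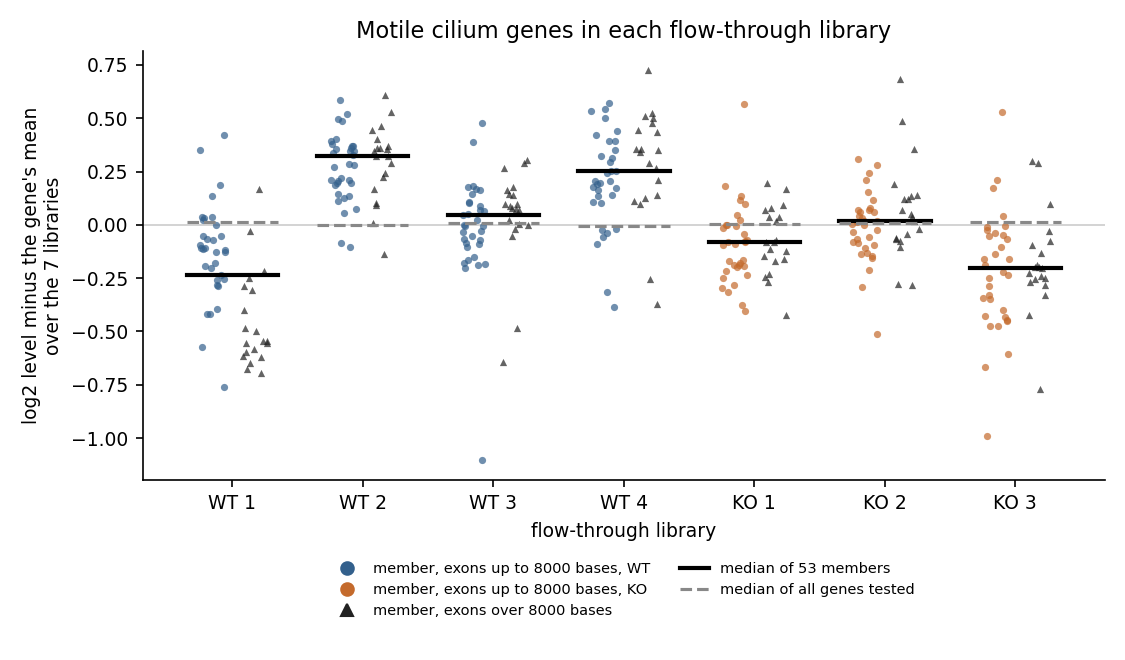
Each point is a member's log2 level (TMM-scaled CPM, prior count 2) minus its mean over the 7 flow-through libraries; triangles have more than 8000 exon bases, black bars are the median of 53 members and dashed bars that of all genes tested. WT libraries 2 and 4 lie highest (0.32 and 0.25), WT library 1 and KO library 3 lowest (-0.23 and -0.20).

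Long and short members, as grouped below, lay further apart in WT library 1 than in KO library 3. Among members whose CD45 level was below 5% of their flow-through level, a group formed after the values were seen, the 12 with over 8000 exon bases had a median deviation of -0.56 in WT library 1. The 16 with under 3500 bases had -0.13 there. In KO library 3 the same long and short members had -0.20 and -0.25. Over all genes tested, the same length classes had -0.09 and 0.07 in WT library 1, and -0.05 and 0.05 in KO library 3. KO library 3 had the steepest slope of gene level on GC content, 0.23 log2 units per 10% GC, against -0.10 to 0.02 in the other 6 libraries. WT library 1, among the lowest for the members, had -0.07 and WT library 4, among the highest, had -0.08. The part of length or GC content in the members' levels was tested only for the genotype comparison, with both trends removed, as given below.

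All 15 Dnah genes had a median pairwise correlation of 0.64, and the 9 with under 5% of their flow-through level in the CD45 fraction had 0.85. It was 0.58 over the 37 members under 5% and 0.40 over the 16 at 5% or more. The other role groups were not computed. Foxj1 had a median correlation of 0.74 with the 52 other members, and 36.5% of them were above 0.8, against 2.54% of all genes tested. The members most like Foxj1 were Rsph4a (r = 0.98 over 7 libraries) and Cfap126, a microtubule inner protein (0.96). Dnah17 was the least like it, at -0.33. Rsph4a had 32.7, 48.6, 39.5 and 42.4 CPM in WT libraries 1 to 4 and 35.8, 39.2 and 28.5 in KO libraries 1 to 3, in the same order as Foxj1.

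Foxj1 was set against 6 marker genes that are no members, with exact two-sided permutation tests over 7 libraries and p-values adjusted over the 6 relations. With Dcx, a neuroblast gene, r was 0.88 (exact permutation p = 0.014, adjusted p = 0.083) and Spearman's rho was 0.82 (exact permutation p = 0.034, adjusted p = 0.20). Without the 2 libraries farthest from the Foxj1 median, KO 3 and WT 2, r was 0.29, so the value over 7 rests on those libraries, whose removal also narrows the range of Foxj1. With genotype means removed, r over all 7 was 0.81 (exact permutation adjusted p = 0.19). For the ependymal genes Ccdc153 and Tmem212, r was -0.32 and 0.23 (exact permutation adjusted p = 0.74 for both), with rho of -0.29 and 0.29. For the choroid plexus gene Ttr, the astrocyte gene Gja1 and the neuron gene Slc17a7, r was 0.31, 0.10 and -0.61 and rho 0.39, 0.11 and -0.61, with exact permutation adjusted p = 0.74, 0.84 and 0.45. None of the 6 relations passed the adjusted threshold.

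The genotype comparison asks whether endothelial EphA4 deletion altered transcripts of the non-immune fraction. Of the 53 members tested in the flow-through with edgeR's quasi-likelihood test, none rose, 1 fell and 52 did not pass an adjusted p of 0.05. Over all 16546 genes tested, 1.57% passed (1.42% rose and 0.151% fell). The log2 fold change of KO over WT was below 0 for 43 members, with a median of -0.21. Over all genes tested, 51.7% were below 0 and the median was -0.01. At an unadjusted p under 0.05, 7 members were lower and none higher, against 4.2% and 6.76% of all genes tested (11% in either direction). Single libraries weighed on these values in both directions. Without WT library 1, 22 members had an unadjusted p under 0.05, and the median was -0.29. Without WT 2, WT 4 or KO 3 the median was -0.13, with 8, 8 and 6 members at an unadjusted p under 0.05.

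The member that fell was Cfap300, a cytoplasmic factor of dynein arm assembly on chromosome 9 (positions 8021672 to 8042823, minus strand). It had 21.2, 20.9, 17.1 and 23.1 CPM in WT libraries 1 to 4 and 13.8, 12.9 and 7.91 in KO libraries 1 to 3, from 216 to 592 counts per library. All KO libraries lay below all WT libraries, and KO library 3 was the lowest. The means were 20.6 ± 2.54 (SD, n = 4) and 11.5 ± 3.19 (SD, n = 3). On the log2 scale KO minus WT was -0.84 (SE 0.18, edgeR adjusted p = 0.037). The call was kept in 8 of 14 alternatives. It was lost when GC and length trends were removed (-0.73, edgeR adjusted p = 0.058) and when all 14 libraries were fitted together (edgeR adjusted p = 0.13). It was also lost without WT library 1, WT 2, WT 4 or KO 2, with edgeR adjusted p = 0.094, 0.12, 0.10 and 0.065. Over the 14 alternatives the log2 fold change ran from -0.999 to -0.627, and the adjusted p from 5.75e-08 to 0.13.

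Foxj1 itself averaged 206 CPM ± 30.7 (SD, n = 4) in WT and 169 ± 25.9 (SD, n = 3) in KO libraries. Its log2 difference, -0.29 (SE 0.13, edgeR adjusted p = 0.44), did not pass. The 5 other members with an unadjusted p under 0.05 were Cfap99 (-0.68), Cfap97d2 (-0.56), Cfap100 (-0.53), Rsph10b (-0.42) and Cfap45 (-0.35), with edgeR adjusted p-values of 0.17 to 0.28. Cfap100, which tethers an inner arm dynein, had 15.98, 24.06, 20.56 and 25.92 CPM in WT libraries 1 to 4 and 14.9, 17.1 and 13.1 in KO libraries 1 to 3. Its groups overlapped through WT library 1. Without that library, Cfap100, Cfap44, also of a dynein tether, and Cfap99 passed (edgeR adjusted p = 0.031, 0.0097 and 0.048) and Cfap300 did not.

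By role, no member of the outer arm (5 genes), inner arm (9), spoke (9), central apparatus (5), tether and regulator (7) or inner protein (7) groups passed. The median log2 fold change was -0.17 in the outer arm chains, -0.08 in the inner arm chains and -0.15 in the spoke genes. It was -0.26 in the central apparatus genes, -0.28 in the tether and regulator genes and -0.23 in the inner proteins. The heavy chains had wide intervals: Dnah6, the highest inner arm chain per kilobase, had -0.36 (SE 0.22) and Dnah10 had 0.12 (SE 0.22). The highest fold changes were those of the low genes Dnah17 (0.58, SE 0.32) and Rsph14 (0.54, SE 0.35), then of Cfap157 (0.31), and none of the 3 passed.

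Groups without overlap were seen for 7 of 53 members, 6 with KO below WT and 1, Dnah17, with KO above. Over all genes tested, 11.5% did not overlap, 4.9% with KO below and 6.62% with KO above. The 6 were Cfap300, Cfap45, Rsph10b, Cfap53, Cfap97d2 and Cfap58. Cfap45, a microtubule inner protein, had 35.2, 42.3, 33.4 and 43.4 CPM in WT libraries 1 to 4 and 30.7, 33.1 and 27.3 in KO libraries 1 to 3. The gap between the lowest WT and the highest KO library was small beside the spread within WT.

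**Figure D3:**
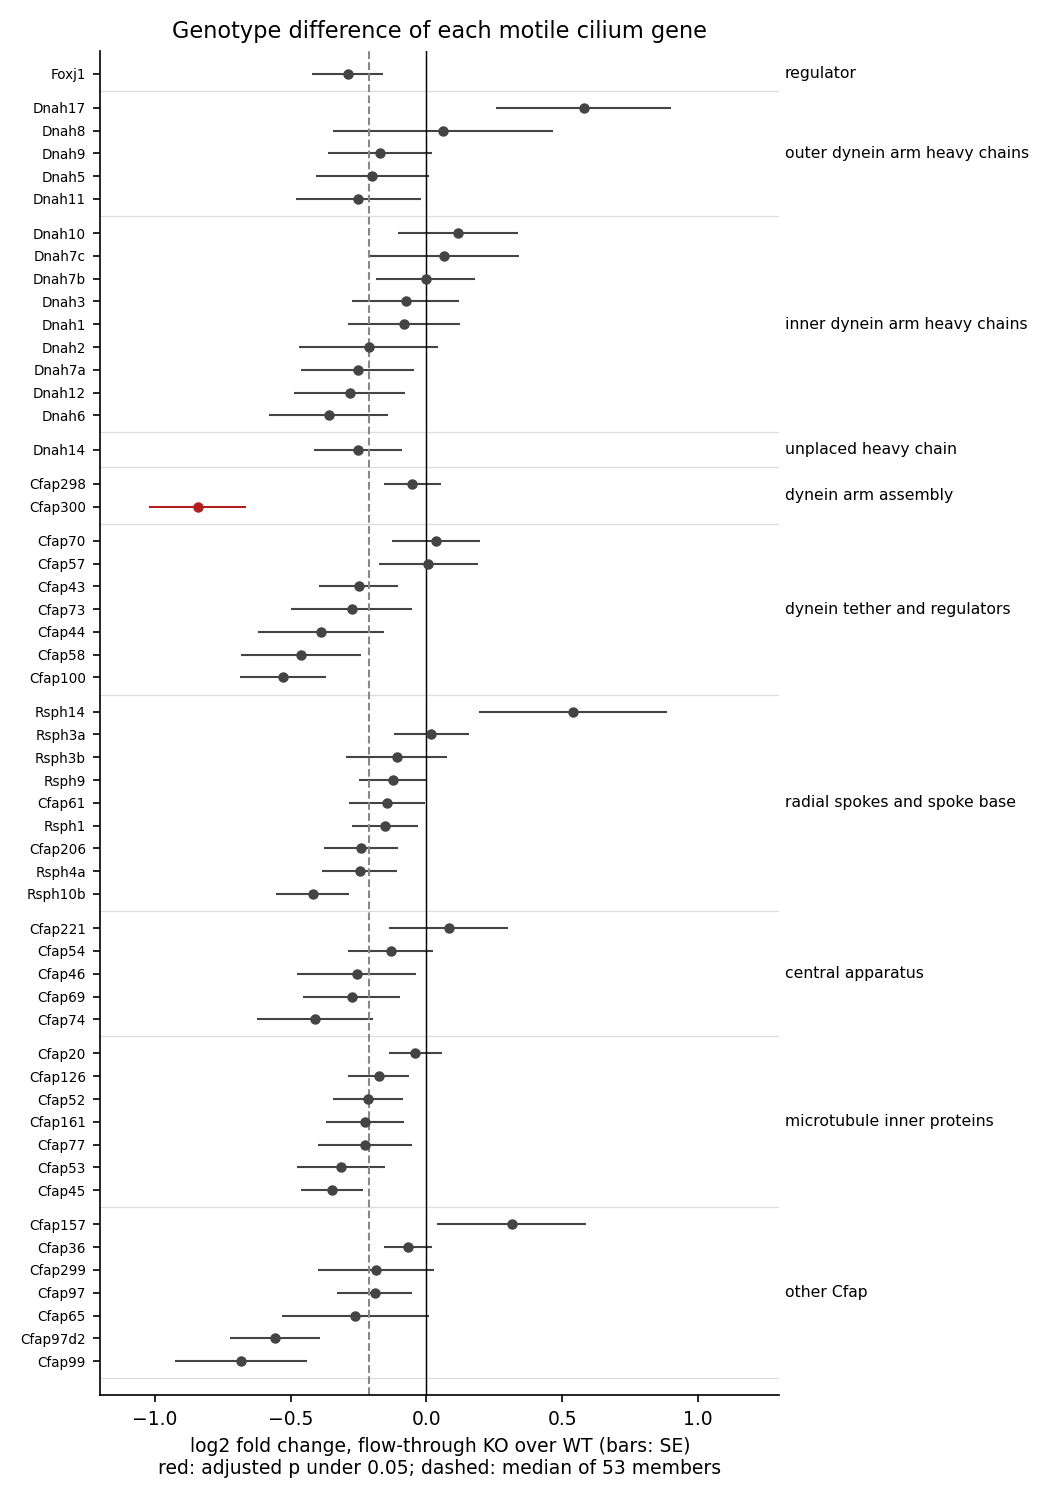
Log2 fold change of KO over WT in the flow-through for the 53 members, grouped by role, with bars of 1 SE; the dashed line is the members' median (-0.21). Cfap300, in red, is the member past the adjusted threshold (-0.84), and most points lie left of 0.

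Other genes of motile cilia, which do not carry the 3 family names, were read from a fixed list. Of its 68 genes 58 were matched, 55 were tested and none passed. The smallest edgeR adjusted p was that of Drc1, a subunit of the nexin-dynein regulatory complex (-0.54, SE 0.14, edgeR adjusted p = 0.079). At an unadjusted p under 0.05, 21 were lower and none higher, against 4.2% and 6.76% of all genes tested. Of the 55, 51 were below 0, against 51.7% of all genes, and the median was -0.23. Drc1 had 31.4, 45.3, 39.2 and 47.3 CPM in WT libraries 1 to 4 and 27.96, 31.12 and 25.15 in KO libraries 1 to 3, without overlap. Mns1, an inner protein of the doublets, had -0.39 (SE 0.11) and Tekt1, a tektin filament protein, -0.38 (SE 0.11). The transcription factor Rfx3 had -0.35 (SE 0.13). None of these 3 passed.

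Genes of intraflagellar transport and the primary cilium, which many cell types express, were a second fixed list. Of 35 tested, none rose and 1 fell, with a median of -0.15. The gene was Ift81, a subunit of the transport complex that carries tubulin. It had 34.3, 33.5, 33.4 and 33.9 CPM in WT libraries 1 to 4 and 27.04, 26.78 and 24.16 in KO libraries 1 to 3. No KO library reached the WT range, and the log2 difference was -0.38 (SE 0.09, edgeR adjusted p = 0.044). The call of Ift81 was not followed through the alternatives that were run for Cfap300. At an unadjusted p under 0.05, 11 genes of this list were lower and none higher, against 4.2% and 6.76% of all genes tested.

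Markers of other cells were read beside these lists. All 8 neuroblast markers were lower at an unadjusted p under 0.05 with none passing the adjusted threshold, with a median of -0.36 and summed levels of 861 to 1071 CPM in WT and 591 to 806 in KO libraries. Of 8 neuron markers 2 rose, 1 fell and 5 did not pass, and their summed level was 408 to 620 CPM in WT and 579 to 789 in KO libraries. Of the 12 ependymal markers tested, which share Ak7, Dynlrb2 and Tekt1 with the motile cilium list, none passed and the median was -0.13. Of these 12, 8 were below 0, against 51.7% of all genes tested. At an unadjusted p under 0.05, 2 were lower and none higher, against 4.2% and 6.76% of all genes tested. The summed level of the ependymal list was 197 to 256 CPM in WT and 199 to 212 in KO libraries. The summed level of the 53 members was 976 to 1386 CPM in WT and 947 to 1138 in KO libraries. The part of cell composition in the members' fold changes was not tested.

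The choroid plexus, the secretory epithelium of the ventricles, is also ciliated. Its 10 markers varied far more between libraries than the members did, with summed levels of 97, 758, 572 and 132 CPM in WT libraries 1 to 4 and 1929, 81 and 104 in KO libraries 1 to 3. The members went with it in some libraries and not in others. KO library 1 held the most choroid plexus RNA and had a median member deviation of -0.08, and WT library 4 held little and had 0.25. WT library 2, with 758 CPM, had 0.32, and KO library 3, with 104 CPM, had -0.20. The part of choroid plexus RNA in the members' levels was not tested.

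**Figure D4:**
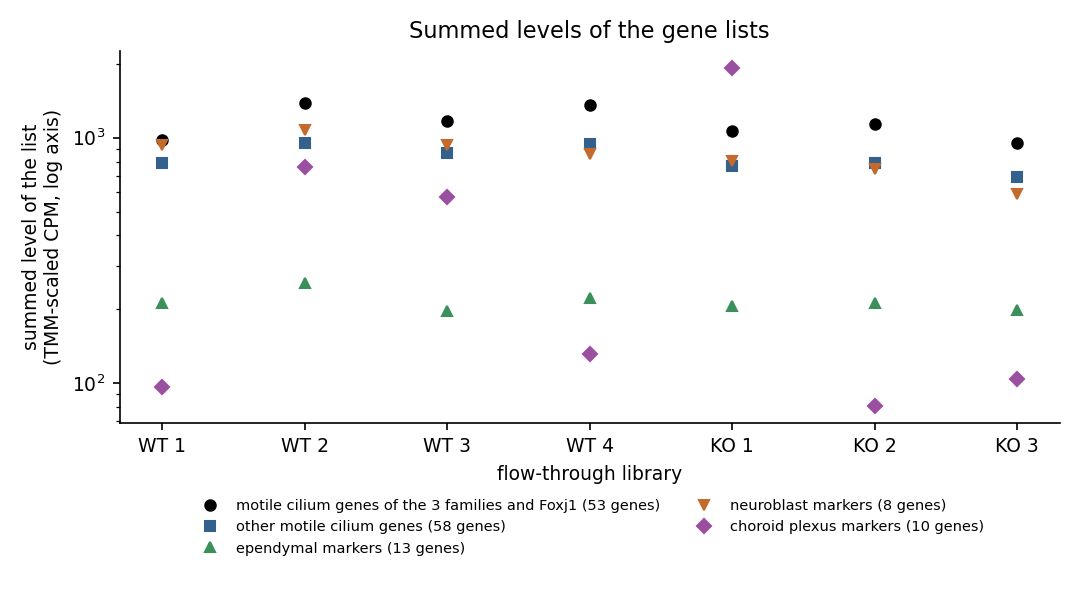
Summed level of 5 gene lists in each flow-through library, as TMM-scaled CPM on a log axis. The choroid plexus markers span 81 to 1929 CPM between libraries, while the 53 members stay between 947 and 1386.

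The CD45 table shows how much of this RNA was counted with the immune cells. Of the 53 members, 47 were lower and 3 higher in the CD45 libraries at an adjusted p under 0.05, and 3 did not pass. Over the 18098 genes tested 86.1% passed, 44.7% lower and 41.4% higher, so a call by itself says little. The members were kept for their flow-through counts, so the direction is a description. The log2 fold change of CD45 over flow-through had a median of -4.65, against -0.05 over all genes tested, 51.5% of which were below 0. The summed level of the members was 98.9 to 119 CPM in the 7 CD45 libraries.

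For 37 members the CD45 level was under 5% of the flow-through level, which was so for 13.1% of the genes tested in the flow-through. All such shares divide levels scaled within each fraction. The fold changes between fractions come from the fit of all 14 libraries, which scales the fractions to each other and puts CD45 higher. Members near 5%, such as Cfap99 (4.46%, log2 fold change -3.77), lie above 5% on the scale of that fit. Foxj1 had 2.56, 3.17 and 3.53 CPM in the CD45 WT libraries and 1.95, 3.03, 0.44 and 1.66 in the CD45 KO libraries, 1.23% of its flow-through mean. Cfap300 had 0.14 to 0.31 CPM, from 3 to 9 counts, or 1.40%. Dnah5 and Dnah9 were at 1.84% and 1.91%, Rsph4a at 1.46% and Cfap126 at 2.99%. Markers of other flow-through cells were also counted there, with a median of 1.03% for oligodendrocyte, 1.58% for astrocyte and 0.43% for neuroblast genes. The 8 neuron markers were higher, with a median of 14.7% and 5 of 8 at 5% or more. The part of such RNA in the members' CD45 counts was not tested.

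The other 16 members had a CD45 level of 5% or more. Cfap20, an inner junction protein, had 38.9 CPM on average in the flow-through and 21.4 in the CD45 libraries, 55.03% of the former. Cfap36 had 15.7%, Cfap298 27.1%, the inner arm chain Dnah2 21.8% and the central apparatus gene Cfap54 11.3%. The spoke stalk genes Rsph3a and Rsph3b, near-identical copies whose split is uncertain, had 63.8% and 59.0%. On the joint scale of the fit, neither passed the test between fractions (-0.12, edgeR adjusted p = 0.36, and -0.22, edgeR adjusted p = 0.30). The central apparatus gene Cfap74 did not pass either (48.2%, -0.48, edgeR adjusted p = 0.055). Under upper-quartile scaling these 3 passed as lower, at -0.37, -0.47 and -0.72. Without CD45 WT library 3, Rsph3b (edgeR adjusted p = 0.046) and Cfap74 (0.036) passed as lower. Cfap74 also passed with DESeq2 (adjusted p = 0.048) and, with edgeR, without flow-through WT library 1 (0.018) or CD45 KO library 4 (0.013).

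The 3 higher members were Dnah8, Dnah17 and Cfap97. Dnah8, on chromosome 17 (positions 30624354 to 30877365, plus strand), had 0.95, 1.01, 0.78 and 1.91 CPM in flow-through WT libraries and 1.296, 1.86 and 0.62 in flow-through KO libraries. It had 3.78, 2.82 and 0.75 CPM in the CD45 WT libraries and 1.95, 3.31, 5.30 and 1.14 in the CD45 KO libraries, from 19 to 90 counts. The ranges overlapped, and on the log2 scale CD45 exceeded flow-through by 1.65 (SE 0.41, edgeR adjusted p = 0.0014). The lowest CD45 libraries for Dnah8, WT 3 and KO 4, also had the lowest summed level of monocyte and macrophage markers, 2808 and 3705 CPM, against 5398 to 6473 in the other 5. Among those 5 the order differed: KO 3, the highest for Dnah8, had the lowest of the sums, and KO 1, the lowest for Dnah8, had the highest. WT 3 and KO 4 also had the highest summed levels of oligodendrocyte markers, 1525 and 933 CPM, and of lymphocyte markers, 20.6 and 21.7 CPM. The part of any of these cell types in the difference of Dnah8 between fractions was not tested.

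The calls for Cfap97 and Dnah17 did not hold under every setting. Cfap97 differed between fractions by 0.48 log2 units (SE 0.12, edgeR adjusted p = 0.0016), yet its CD45 level scaled within the fraction was 96.0% of its flow-through level. The fit of all libraries scales the fractions to each other, and upper-quartile scaling gave 0.22 (edgeR adjusted p = 0.077). Dnah17, at 0.79 CPM in CD45 and 0.76 in flow-through libraries, had 0.57 (SE 0.22, edgeR adjusted p = 0.024), and 0.32 (edgeR adjusted p = 0.18) under upper-quartile scaling. Its call was also lost without the low-count filter (edgeR adjusted p = 0.10), without flow-through KO library 1 (0.057) and without CD45 WT library 3 (0.055). Dnah8 stayed higher in all 19 alternatives.

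**Figure D5:**
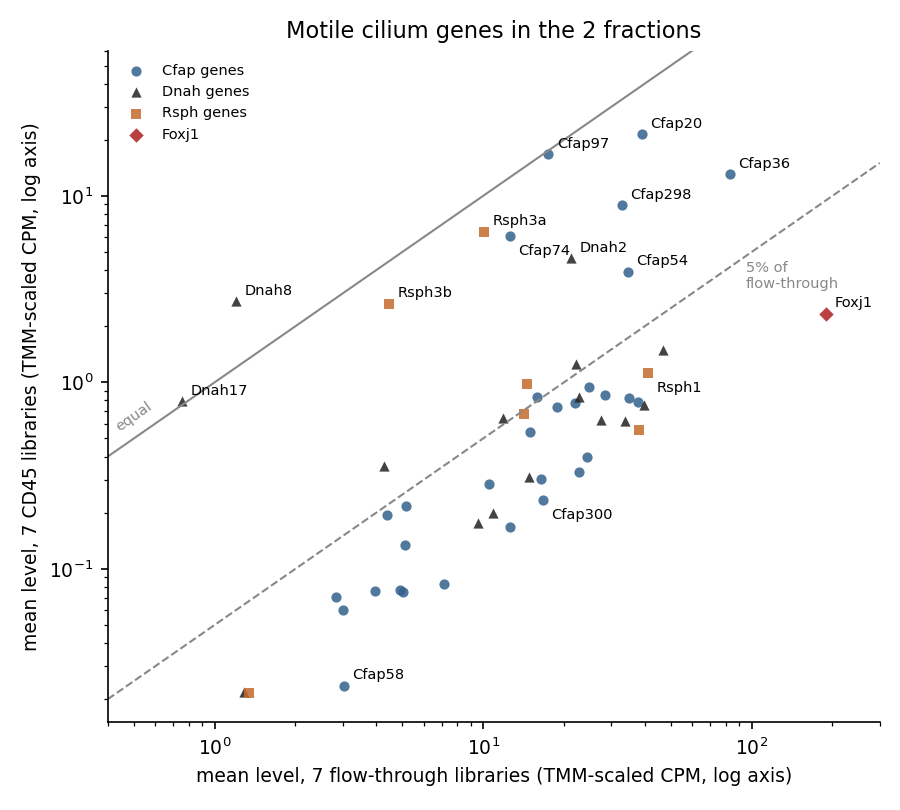
Mean level of each member in 7 CD45 libraries against that in 7 flow-through libraries, as CPM TMM-scaled within each fraction, on log axes. The solid line marks equal levels on this scale and the dashed line 5% of the flow-through level. The 37 members below the dashed line include Foxj1 (1.23%), and Dnah8 (226%) lies well above the solid line.

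Between genotypes within the CD45 fraction, 32 members had enough counts to be tested, and none passed with edgeR, none had an unadjusted p under 0.05 and none passed with DESeq2. Over all 15660 genes tested 0% passed with edgeR and 4.43% had an unadjusted p under 0.05 (2.13% higher and 2.3% lower). Of the 32 members 16 were below 0, with a median of -0.00, against 45.5% of all genes. The groups did not overlap for 1 of the 32, Cfap298, with KO below WT. Over all genes 5.34% did not overlap, 2.87% with KO below and 2.47% with KO above. Foxj1 had -0.76 (SE 0.44, edgeR adjusted p = 0.97), with CD45 KO library 3, at 5 counts, far below the rest. For the 17 tested members with little CD45 RNA, few counts limit what could be detected.

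The difference between the genotype effects of the fractions was tested as an interaction in the joint fit. No member passed with edgeR or DESeq2, and 6 of 53 had an unadjusted p under 0.05 with edgeR and 3 with DESeq2. Of the 6, Cfap300, Cfap97d2 and Rsph10b were above 0 and Cfap57, Cfap58 and Cfap70 below. Over all 18098 genes 0% passed and 7.21% had an unadjusted p under 0.05, 3.16% above 0 and 4.06% below. Cfap300 had an interaction of 1.03 (edgeR unadjusted p = 0.043, adjusted p = 0.68), so its fall in the flow-through was not shown to differ from the CD45 fraction, where it had at most 9 counts per library.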

How the data were processed

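The labels' protocols name a stranded kit for polyadenylated RNA. The submitters' processing notes name Trim Galore, FastQC, STAR 2.7.9a, DESeq2 and the GRCm38 build. The authors deposited whole-number counts per gene in 1 table per fraction. How reads were assigned to genes, and with which strand setting or gene models, is not given in the sources used. Companion tables of DESeq2-normalized values were not used. Of 33223 gene identifiers 33130 matched GENCODE M21, which gave names, positions, GC content and exon length.

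In R 4.3.3, genes kept by filterByExpr (minimum count 10, total 15) were TMM-scaled and tested with edgeR 4.0.16 (quasi-likelihood, robust). Genotypes were compared within a fraction. Fractions and the interaction were fitted on all 14 libraries with 1 mean per group. P-values were adjusted over all genes by the Benjamini-Hochberg method and called under 0.05. Fold changes are KO over WT or CD45 over flow-through. Log levels used a prior count of 2, also for the correlations of Foxj1 with members. The relations of Foxj1 with marker genes that are no members used 0.1 CPM and were run in scipy 1.17.1. DESeq2 1.42.0, other scalings, no filter, removed GC and length trends and left-out libraries were tried. The scripts were tested on simulated data. Motifs were searched in RefSeq promoter windows.

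The members and lists were chosen with earlier results of these data known. Genes named are Foxj1, members called, up to 4 per role with the highest level per kilobase, the 5 lowest and 5 highest fold changes, the 8 members with the highest CD45 share and those nearest the count rule. Cfap53, Cfap57, Cfap58, Cfap61, Cfap70, Cfap77, the Dnah7 copies, Rsph10b, Drc1, Mns1, Tekt1, Rfx3 and Ift81 were named after their values were seen where the rule does not reach them. Replicate numbers follow accession order and pair nothing.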

Additional observations from a re-analysis of the deposited data

Results flagged for a closer look

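In the groups of 4 libraries (flow-through WT and CD45 KO), each member's level was checked for a library far from the other 3, by the gap to its nearest neighbour over the group's range (Dixon's test at the 95% level). Of 105 such checks 6 passed the limit, and chance passes about 1 in 20. Rsph3b in flow-through WT library 4 had a ratio of 0.9845, at 5.97 CPM. In the CD45 KO group, Cfap100 in library 4 had 0.9705 (1.71 CPM). Cfap61 in library 1 had 0.8664 (0.40 CPM). Cfap57, Cfap77 and Rsph14 in library 1 each had a ratio of 1, because the other 3 libraries had no count.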

How the results depend on the processing

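The count of genes called in the flow-through was 260 and ranged widely: 436 with DESeq2, 629 without the low-count filter, 30 in the joint fit, 171 with GC and length trends removed and 134 to 287 with a library left out (144 without WT 2, 159 without WT 3, 134 without KO 1, 163 without KO 2). The count of members called was 1: it was 2 without the filter, where Cfap100 joined Cfap300, 0 in the joint fit, 0 with GC and length removed, and 0 to 3 with a library left out. The members' median fold change kept its sign in all 14 alternatives and lay between -0.29 and -0.13 with a library left out. In the CD45 fraction the count of genes called was 0, against 10 with DESeq2 and 0 to 1 with a library left out (1 without KO 1). No member was called there, or in the interaction, under any alternative run. Upper-quartile scaling moved the median fold change of all genes between fractions from -0.05 to -0.31, and the members called to 1 higher and 50 lower. The alternatives for single members between fractions were added after the data were seen. The median correlation of member pairs was 0.59 with plain CPM and a prior count of 0.5. No called result that was followed reversed. Genotype calls of single genes outside the members were not followed. The causes of these changes were not tested. No paired analysis was possible because the replicate numbers follow accession order and the labels tie no libraries together. Few counts limit the CD45 values, where 16 of 53 members had at least 10 counts in every library.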
